A study of Macaca fascicularis with 24 samples.

Results

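ENSMFAG00000000002 and ENSMFAG00000000004 are 2 of the 29324 Ensembl gene IDs counted in brain punches of cynomolgus macaques (Macaca fascicularis), and they were chosen by ID. They are taken here for the mitochondrial ribosomal RNAs, the small-subunit 12S RNA and the large-subunit 16S RNA. This identity is an inference from the order of the IDs. The files give no symbols, and 0 of the 29324 IDs matched the 40596 entries of the gene table at hand. In the text, "presumed 12S" stands for ENSMFAG00000000002 and "presumed 16S" for ENSMFAG00000000004. Their choice also followed their abundance: both belong to the 12 IDs with more than 1% of all counted reads apiece, a threshold that lay between an ID at 1.10% and one at 0.932%. Their levels are therefore a description.

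The 8 animals form a pair of groups. The 4 treated animals received a Di-siRNA, a divalent form of small interfering RNA, directed at Huntingtin, whose expanded form causes Huntington's disease. The 4 non-treated animals are labelled only as such, with no vehicle or control siRNA named. Dose, route, time, age, sex and brain region do not appear in the labels. Each animal gave 3 punches of brain tissue, each made into 1 library from polyadenylated RNA with a kit that keeps the strand. Libraries held 6761946 to 15741415 counted reads. Without symbols, neither brain marker genes nor the targeted transcript could be used to check the labels. Nothing says whether punches with the same number came from the same place in the brain.

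Mitochondria keep a small circular genome of their own, which encodes a set of respiratory chain proteins together with the transfer RNAs and the 2 ribosomal RNAs needed to translate them. The ribosomal RNA genes lie next to each other near the start of one transcription unit, with a transfer RNA gene before, between and after them, and the long precursor is cut apart at the transfer RNAs. The 12S RNA forms the core of the small subunit of the mitochondrial ribosome and the 16S RNA that of the large subunit. Both RNAs carry short A tails in mammals, so part of them is carried through a poly(A) selection. Neurons use much of their energy at synapses and are rich in mitochondria. Nuclear copies of mitochondrial DNA can share reads with these genes, and how such reads were counted is not stated. No sequence or position of either gene was at hand.

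The IDs around the 2 genes had few reads. Over all 24 libraries the presumed 12S held 3797244 reads and the presumed 16S 10412325. ENSMFAG00000000001, ENSMFAG00000000003 and ENSMFAG00000000005, which would be the flanking transfer RNAs, held 1823, 210 and 2164 reads. Alternating very high and very low counts are thus seen over these 5 IDs. The 2 genes were chosen with their abundance known, so this pattern is no test of their identity. The order does not go on as a whole mitochondrial genome would. Of the 37 lowest IDs, read as such a genome, the other 35 together held 0.0101% of all reads, and 5 of them had no read at all. Of the 13 positions where protein-coding genes would stand, 11 had reads. Only 4 of them had enough reads to be tested, with mean levels of at most 13.3 CPM. The 37 IDs therefore cannot be read as a mitochondrial genome, and the identity inferred from the ID order is less certain for it. Instead, 9 of the 12 IDs over 1% of reads lie in a run of 13 consecutive IDs from ENSMFAG00000046415 to ENSMFAG00000046427. This run held 33.9% of all reads, and by the same kind of inference, made after its counts were seen, it is presumed to hold the mitochondrial protein-coding genes.

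The presumed 12S took 1.40% of all counted reads and the presumed 16S 3.83%, together 5.23%. The presumed 16S ranked between 1 and 8 among all IDs over the 24 libraries, and the presumed 12S between 10 and 12. In single libraries the 95% Wilson interval of a share was narrow, at most 0.757% of the share to either side, and it covers counting error only. Reads are not scaled to transcript length here, since no length was at hand, so the 2 genes' counts do not give their relative molar levels.

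In non-treated animals the presumed 12S, the small-subunit RNA, held 1.89%, 1.32%, 1.37% and 1.77% of reads in animals 1 to 4, with the 3 punches of each animal summed. In treated animals 1 to 4 it held 1.22%, 0.939%, 1.24% and 1.42%. The ranges of the groups overlapped, because treated animal 4 lay above non-treated animals 2 and 3. Over single libraries the share ran from 1.21% to 3.36% (median 1.52%) in the 12 non-treated and from 0.865% to 1.48% (median 1.19%) in the 12 treated libraries.

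For the presumed 16S, the large-subunit RNA, non-treated animals 1 to 4 held 4.67%, 3.86%, 4.42% and 5.21% of reads. Treated animals 1 to 4 held 3.46%, 2.53%, 3.09% and 3.29%. All 4 treated animals lay below all 4 non-treated animals. Over single libraries the share ran from 3.35% to 7.99% (median 4.34%) in non-treated and from 2.48% to 4.58% (median 2.96%) in treated libraries, and 9 of 12 treated libraries lay below the lowest non-treated one.

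**Figure D1:**
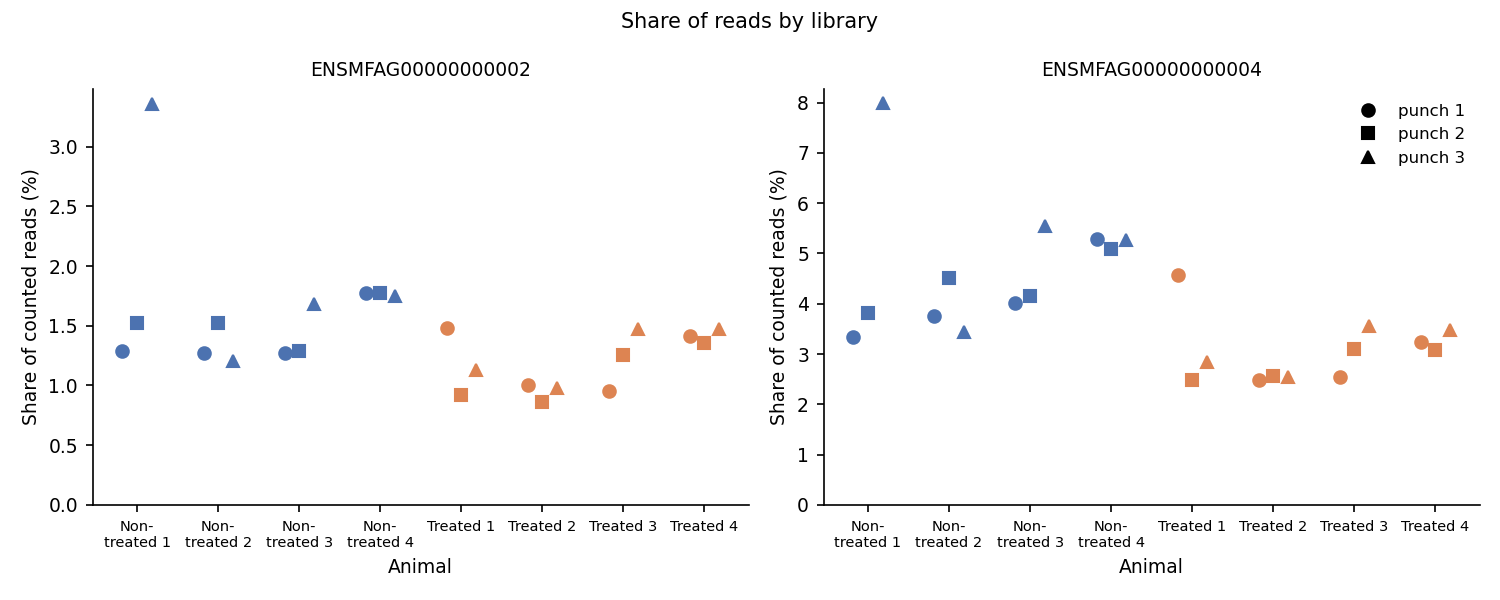
Share of counted reads (%, y axis) of ENSMFAG00000000002 (left) and ENSMFAG00000000004 (right) in each of the 24 libraries, grouped by animal on the x axis, blue for non-treated and orange for treated animals, with 1 symbol per punch number. Punch 3 of non-treated animal 1 stands highest in both panels, at 3.36% and 7.99%, and punch 1 of treated animal 1 is the highest treated library, at 1.48% and 4.58%.

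A pair of libraries stood apart. The third punch of non-treated animal 1 detected 11412 genes, against 15946 to 17568 in each of the other 23. Here the presumed 12S held 3.36% of 8271894 reads and the presumed 16S 7.99%, against 1.29% and 3.35% in punch 1 and 1.52% and 3.81% in punch 2 of the same animal. Without this library the 23 others ran from 0.865% to 1.78% for the presumed 12S and from 2.48% to 5.54% for the presumed 16S. In punch 1 of treated animal 1 the shares were 1.48% and 4.58%, against 0.922% and 2.48% in its punch 2 and 1.13% and 2.84% in its punch 3. Its presumed 12S share was close to the 1.47% in punch 3 of treated animals 3 and 4. Its presumed 16S share was well above the next highest treated library, at 3.56%. Both libraries that stood apart also had the largest shares of reads in the run of 13 IDs, 67.3% and 50.5%, where all others had 23.1% to 43.0%. What part the number of genes detected had in these values was not tested.

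The comparison of treated with non-treated animals asks whether the level of either RNA differed in the brain after the siRNA. Both were lower on average in treated animals, and neither passed the test. Levels here are CPM, a gene's read count set against the total of its library (the usual CPM scale) after TMM scaling, which sets libraries to a common level over most genes. The presumed 12S stood at 23808, 13277, 15183 and 18497 CPM in non-treated animals 1 to 4 and at 12985, 7895, 10911 and 12244 CPM in treated animals 1 to 4. On this scale the groups did not overlap, though treated animal 1 and non-treated animal 2 were 12985 and 13277 CPM. The means were 17691 ± 4613 and 11009 ± 2246 CPM (SD, n = 4 each), a difference of -37.8%. The log2 fold change was -0.68 (SE 0.20, 95% interval -1.13 to -0.24), with an edgeR quasi-likelihood p of 0.00563 and a Benjamini-Hochberg adjusted p of 0.315. In bulk tissue, fewer cells of a type and less RNA per cell cannot be told apart.

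The presumed 16S stood at 58929, 38931, 48888 and 54501 CPM in non-treated animals 1 to 4 and at 36969, 21277, 27224 and 28308 CPM in treated animals 1 to 4. Again no treated animal reached a non-treated one, with treated animal 1 nearest. The means were 50312 ± 8628 and 28444 ± 6469 CPM (SD, n = 4 each), a difference of -43.5%. The log2 fold change was -0.82 (SE 0.19, 95% interval -1.23 to -0.41), with an edgeR p of 0.000938 and an adjusted p of 0.246. Leaving out punch 1 of treated animal 1 gave -1.0 with an edgeR adjusted p of 0.0392, and leaving out treated animal 1 gave -0.98 with 0.0458. That punch stood apart by its high shares of these same genes. Leaving it out was bound to widen the difference, so these 2 passes are no separate support. Leaving out any other animal gave edgeR adjusted p of 0.197 to 0.576, with -0.68 without treated animal 2 as the smallest change. DESeq2 on all animals gave -0.81 with an adjusted p of 0.0022. Over all alternatives its adjusted p ran from 0.0022 to 0.985.

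Of 14892 genes tested by edgeR, 5 passed (0.0336%), 4 of them lower in treated animals (0.0269%), and neither of the 2 genes was among them. Without punch 1 of treated animal 1, 18 passed (0.121%), and without treated animal 1, 43 passed (0.285%), the presumed 16S among them each time. Both genes had an unadjusted p under 0.05, as did 9.66% of all genes, and 5.40% with treated animals lower. DESeq2, which called 153 of 14017 genes (1.09%), called the presumed 16S and gave the presumed 12S an adjusted p of 0.0505. With limma-voom 6 genes were called (0.0403%), and neither of the 2 was among them. In both genes the CPM of the groups did not overlap, which held for 5.31% of all genes, and for 3.20% with treated animals lower. The median log2 fold change was -0.75 over the 2 genes and -0.01 over all genes tested. That abundant genes were lower in treated animals was known when these 2 were chosen, so their direction is no independent evidence.

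**Figure D2:**
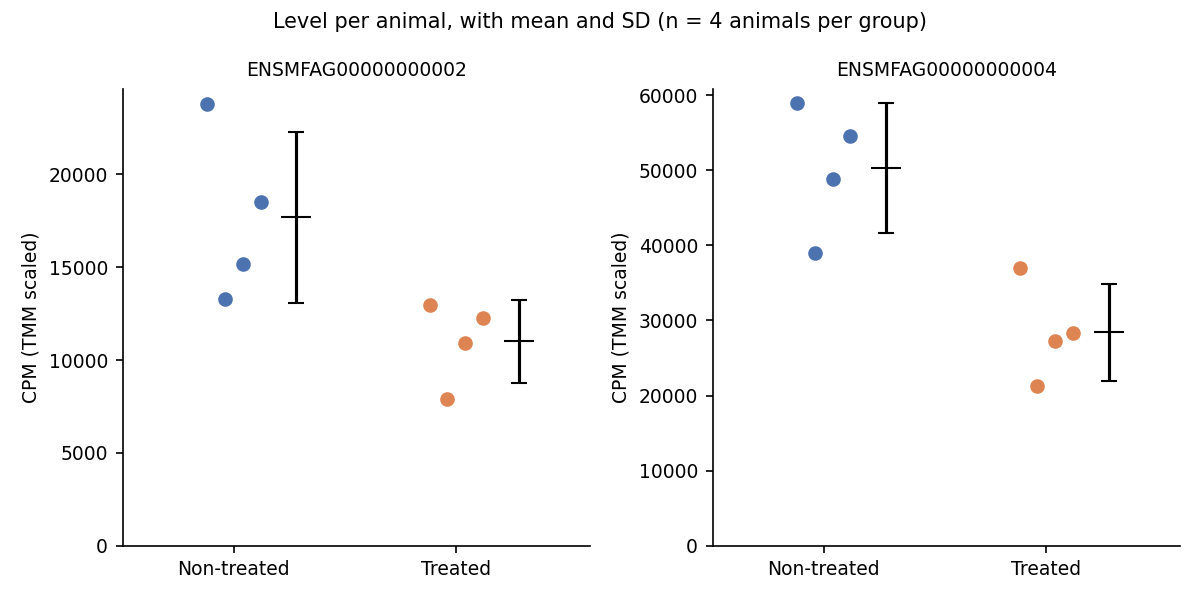
Level of ENSMFAG00000000002 (left) and ENSMFAG00000000004 (right) in CPM after TMM scaling (y axis), with 1 point per animal in non-treated (blue) and treated (orange) groups, and the mean ± SD in black (n = 4 each). In both panels the 4 treated animals lie below the 4 non-treated animals, most closely for ENSMFAG00000000002, at 12985 against 13277 CPM.

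As shares of all counted reads, the comparison was tested per animal with exact two-sided permutation tests, whose smallest possible p is 0.0286. The presumed 12S averaged 1.59 ± 0.284% of reads over the non-treated and 1.20 ± 0.199% over the treated group (SD, n = 4 each), -0.381 percentage points apart (exact p = 0.0857, adjusted 0.107 over the 5 measures tested). The presumed 16S had 4.54 ± 0.559% and 3.09 ± 0.405%, a difference of -1.45 points (exact p = 0.0286, adjusted 0.0714). Both together had 6.12 ± 0.799% and 4.30 ± 0.578%, a difference of -1.83 points (exact p = 0.0286, adjusted 0.0714). No share passed after adjustment, and for the presumed 16S and both together the groups did not overlap. Their exact p was already the smallest possible. The adjusted p could fall under the threshold only if another of the 5 measures reached that p too.

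A share of all reads also moves with the other abundant genes. Set against the reads outside the 15 presumed mitochondrial IDs, a scale added after the data were seen, the presumed 12S had 2.92 ± 0.783 reads per 100 such reads in non-treated and 1.82 ± 0.371 in treated animals (SD, n = 4 each). The groups, at 2.18 to 3.96 and 1.30 to 2.10, then did not overlap (exact permutation p = 0.0286, adjusted 0.0476 over 5 measures and 0.0762 over 8). The presumed 16S had 8.31 ± 1.47 and 4.69 ± 1.00 such reads, at 6.39 to 9.81 and 3.51 to 5.94 (exact permutation p = 0.0286, adjusted 0.0476 and 0.0762). Neither gene passed the threshold over the 8 measures, the family that counts those added later. With 4 animals per group, such a pass needs most of the 8 measures at the smallest possible p. This miss therefore says little about the 2 genes.

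Within single punch numbers the group difference held its direction and varied in size. In punch 1 the presumed 16S was at 4.10 ± 0.836% in non-treated and 3.21 ± 0.975% in treated animals (SD, n = 4 each, exact permutation p = 0.229). Without the library of treated animal 1 the difference went from -0.891 to -1.35 points (exact permutation p = 0.0571). In punch 2, which holds neither library that stood apart, it was at 4.39 ± 0.542% and 2.80 ± 0.329%, with no overlap (exact permutation p = 0.0286), and the presumed 12S was at 1.53 ± 0.198% and 1.10 ± 0.243% (exact permutation p = 0.0571). In punch 3 the presumed 16S was at 5.56 ± 1.87% and 3.11 ± 0.489% (exact permutation p = 0.0857), and the difference of -2.46 points became -1.65 without the library of non-treated animal 1. The edgeR log2 fold changes moved in the same way. For the presumed 12S they were -0.22, -0.77 and -1.69 in punches 1, 2 and 3, with -0.60 in punch 1 and -0.55 in punch 3 without these libraries. For the presumed 16S they were -0.33, -0.95 and -1.78, with -0.86 and -0.88 without them. Of these 6 fits by punch number with all libraries, only the presumed 16S in punch 2 passed (edgeR adjusted p = 0.0233), in a fit where 15 genes did (0.114%).

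The ratio of the 2 RNAs varied less over the libraries than either share. For each read of the presumed 16S there was 0.303 to 0.442 of a read of the presumed 12S over the 24 libraries (median 0.373), a 1.46-fold range, where the shares themselves spanned 3.88-fold for the presumed 12S and 3.23-fold for the presumed 16S. On the log2 scale, punches of 1 animal had a pooled SD of 0.33 in each share and of 0.08 in the ratio. Without punch 3 of non-treated animal 1 these SDs were 0.21 and 0.23 for the shares and 0.08 for the ratio. In that library the ratio was 0.420, against 0.385 and 0.400 in the other punches of the animal, while its shares were over those of every other library.

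The ratio was then compared between animals. It was 0.404, 0.341, 0.311 and 0.339 in non-treated animals 1 to 4, with punches summed, and 0.351, 0.371, 0.401 and 0.433 in treated animals 1 to 4. Non-treated animal 1, at 0.404, lay above 3 of the 4 treated animals, so the groups overlapped. The animal means within groups had an SD of 0.14 on the log2 scale, against 0.08 between punches. Among single libraries the lowest value, 0.303, was in punch 3 of non-treated animal 3 and the highest, 0.442, in punch 2 of treated animal 4. The widest spread within an animal was in treated animal 1, at 0.324, 0.373 and 0.396 in punches 1 to 3, its lowest value being in the library that stood apart in its shares.

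The log2 ratio was -1.53 ± 0.16 in non-treated and -1.37 ± 0.13 in treated animals (SD, n = 4 each), or geometric means of 0.347 and 0.388. The difference of 0.16 was not past the threshold (exact permutation p = 0.171, adjusted 0.171 over the 5 measures). It ran from 0.11 to 0.23 when each animal was left out. In punch 3 without the library of non-treated animal 1 it was 0.30 with no overlap (exact permutation p = 0.0286, adjusted 0.143). A p that misses the threshold does not show that the ratio was the same in both groups.

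**Figure D3:**
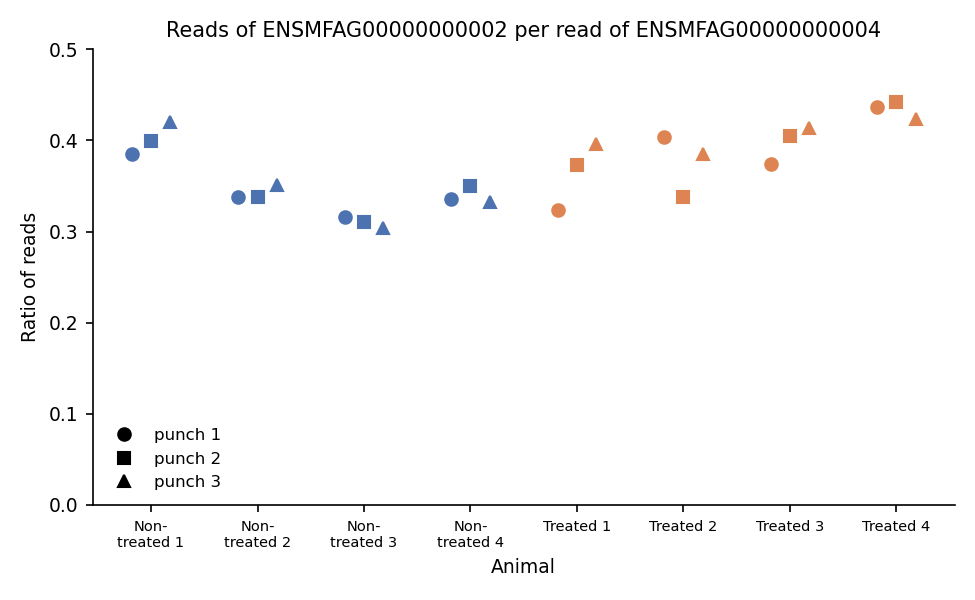
Reads of ENSMFAG00000000002 per read of ENSMFAG00000000004 (y axis) in each of the 24 libraries, grouped by animal on the x axis, blue for non-treated and orange for treated animals, with 1 symbol per punch number. Values lie between 0.303 and 0.442, and punches of 1 animal lie farthest apart in treated animals 1 and 2.

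Punch numbers were compared within animals by exact sign flips over the 8 animals, for both shares and the ratio, 9 comparisons in all. None passed, with the smallest adjusted p at 0.619 where the smallest p possible before adjustment is 0.00781. The presumed 12S was 0.323 ± 0.758 percentage points higher in punch 3 than in punch 1 (SD, n = 8, exact p = 0.258, higher in 4 of 8 animals), with 2.07 points in non-treated animal 1 as the largest difference. Without the pairs that use the libraries that stood apart it was 0.146 points. The presumed 16S was 0.677 ± 1.87 points higher (SD, n = 8, exact p = 0.430, higher in 5 of 8 animals), and 0.417 without those pairs. Whether these differences between punch numbers were unlike in treated and non-treated animals was tested in the same 9 comparisons, with exact permutation p from 0.229 to 1 and adjusted p of at least 0.836.

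Both RNAs were then set beside the run of 13 IDs presumed to be the mitochondrial messenger RNAs, to see how far they moved with them. This comparison was added after the data were seen. For every 100 reads of the run there were 14.3, 15.1, 14.8 and 19.7 reads of the 2 genes together in non-treated animals 1 to 4, and 12.6, 14.2, 16.3 and 17.2 in treated animals 1 to 4. The groups overlapped widely. The log2 ratio was -2.66 ± 0.21 in non-treated and -2.74 ± 0.20 in treated animals (SD, n = 4 each). These differ by -0.08 (exact permutation p = 0.571, adjusted 0.653 over 8 measures). For the presumed 12S alone the difference was 0.03 (exact permutation p = 0.857) and for the presumed 16S alone -0.12 (exact permutation p = 0.486). The run itself held 34.4% to 45.8% of reads in non-treated and 37%, 24.5%, 26.6% and 27.4% in treated animals 1 to 4.

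**Figure D4:**
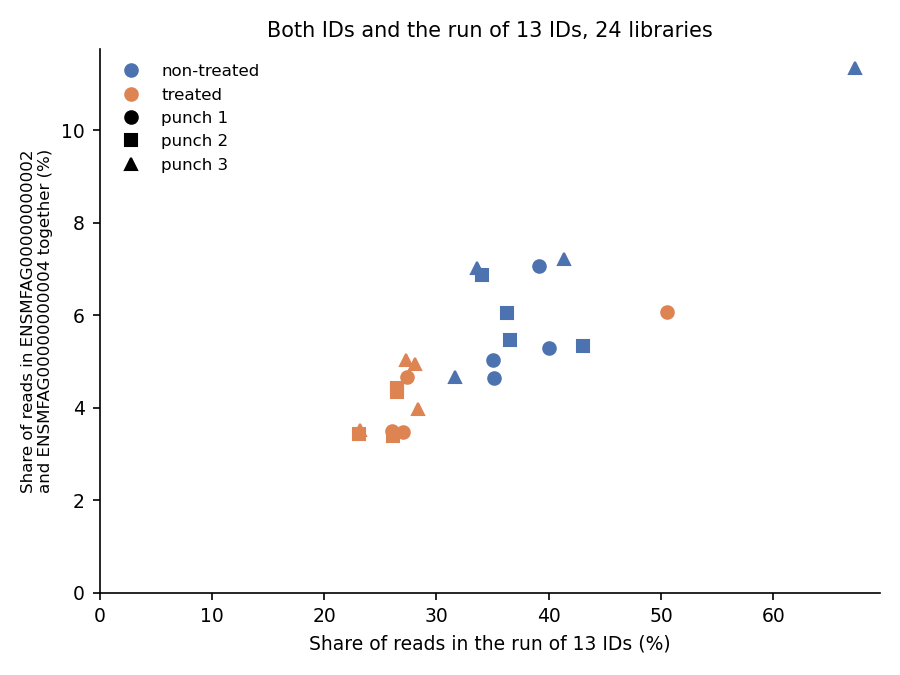
Share of reads in ENSMFAG00000000002 and ENSMFAG00000000004 together (%, y axis) against the share in the run of 13 IDs (%, x axis) in the 24 libraries, blue for non-treated and orange for treated animals, with 1 symbol per punch number. Punch 3 of non-treated animal 1 lies far to the upper right, at 67.3% and 11.4%, and punch 1 of treated animal 1 lies at 50.5% and 6.06%, apart from the other treated libraries.

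Among the 15 IDs the 2 genes lay in the middle of the fold changes. All 13 IDs of the run had a negative log2 fold change, from -1.54 to -0.46 with a median of -0.64, and 1 of them passed the edgeR test (adjusted p = 0.0244). Of the 13, 6 had a more negative value than the presumed 16S, at -0.82, and the other 7 a less negative one than the presumed 12S, at -0.68. An unadjusted p under 0.05 was found in 7 of the 13, against 9.66% of all genes. In 3 of the 13 the groups did not overlap, all with treated animals lower, against 3.20% of all genes. These 13 were singled out with their counts known, and nothing particular to them is read from these shares. Of the other 35 of the 37 lowest IDs, 16 could be tested, 0 passed the edgeR test and 4 had an unadjusted p under 0.05, with 8 of the 16 negative and a median of -0.18.

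**Figure D5:**
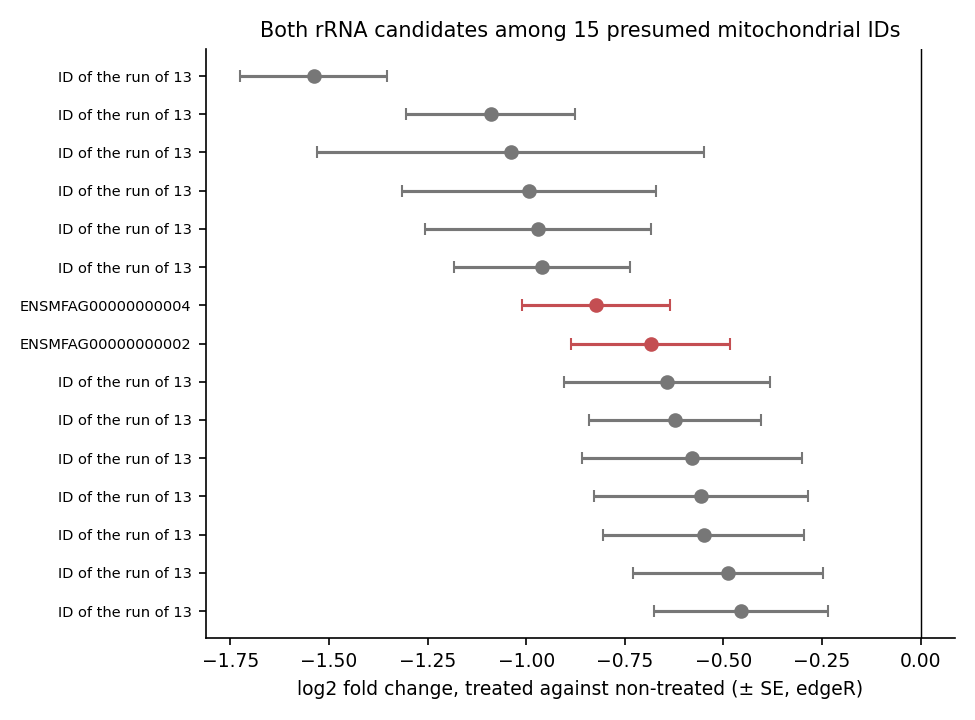
Log2 fold change of treated against non-treated animals (x axis, edgeR, bars show ± SE) for ENSMFAG00000000002 and ENSMFAG00000000004 (red) and the 13 IDs of the run (grey), 1 row per ID, ordered by value. All 15 values are negative, and those of the 2 genes, -0.68 and -0.82, lie between the 6 most negative and the 7 least negative of the run.

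The genes whose pattern was most like that of each RNA were found by Pearson r of log2(CPM + 1) over the 24 libraries, which share their scaling and include 3 punches per animal, so the values are descriptive. For each of the 2 genes the most alike of all tested genes was the other one, at r = 0.976. This also held over the 23 libraries without punch 3 of non-treated animal 1, at 0.961. Over the 8 animals the r of the 2 genes was 0.953. Next for the presumed 16S was ENSMFAG00000046427 of the run of 13, at r = 0.971 and second again over the 23 libraries at 0.946. Over the 8 animals ENSMFAG00000046427 was more like the presumed 16S than the presumed 12S was, at r = 0.973. Next for the presumed 12S was ENSMFAG00000020465, which lies outside the run, at r = 0.944, but it ranked only 4 without that library, at 0.872. Of the 20 genes most like the presumed 12S over the 24 libraries, 11 belonged to the run of 13, and 12 of the 20 most like the presumed 16S did. These counts were not taken again without the libraries that stood apart.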

How the data were processed

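Each library has 1 deposited file of whole-number read counts by Ensembl gene ID, unnormalized. The submitters' processing notes name STAR 2.5.3a and HTSeq 0.10.0, in no stated role. The genome build and the annotation were not stated. No pair among the 276 pairs of libraries was close enough to be 1 library deposited again (smallest chi-square per degree of freedom 3.92 over genes with at least 20 reads).

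The members and lists were chosen with earlier results of these data known. The rule for named genes was both members by ID and, for each, the 2 most alike genes over the libraries.

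The animal was the replicate, and the counts of its 3 punches were summed. Genes were kept by filterByExpr (minimum count 10), scaled by TMM and tested by quasi-likelihood in edgeR 4.0.16 under R 4.3.3, with Benjamini-Hochberg adjustment over all 14892 genes and a threshold of 0.05. The SE is the log2 fold change over the square root of F. Where animals were left out, all genes were fitted again. Exact tests ran over the 70 assignments of animals or 256 sign patterns. Fewer were possible where animals or pairs were left out, and in the replicate block. The adjusted p covers 5 measures, 8 with those added later, or 9 comparisons of punch numbers. Alternatives were other scalings, filters and denominators, DESeq2 1.42.0, limma-voom (limma 3.58.1), single punch numbers, a replicate block, and each animal or the libraries that stood apart left out. The scripts were tested on simulated data. Punches of an animal share their source. The exact p-values of treated against non-treated rest on the spread between 4 animals per group. Those of punch numbers rest on differences within the 8 animals. The edgeR p also draws on the spread of the other genes.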

Additional observations from a re-analysis of the deposited data

Results flagged for a closer look

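A value far from the other 3 of its group occurred in 2 of 32 groups of 4 animals or libraries. By chance about 1.6 such groups would arise. In punch 1, ENSMFAG00000000002 held 1.78% of reads in non-treated animal 4 and 1.27% to 1.29% in the other non-treated animals. With punches summed, there were 19.7 reads of both IDs per 100 reads of the run of 13 IDs in non-treated animal 4, and 14.3 to 15.1 in the other non-treated animals.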

How the results depend on the processing

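The fits without single libraries within a punch number, the denominator outside the 15 IDs and the ratios to the run of 13 IDs were added with the data already seen. For each change below, the cause was not tested. The log2 fold change of ENSMFAG00000000002, -0.68, stayed negative and missed the edgeR threshold in all 28 alternatives (-0.78 to -0.51 without each animal). That of ENSMFAG00000000004, -0.82, stayed negative in all 28 and passed in 5: with DESeq2 (-0.81), in punch 2 (-0.95), without punch 1 of treated animal 1 (-1.0), without that punch and punch 3 of non-treated animal 1 (-0.84), and without treated animal 1 (-0.98 to -0.68 over animals left out). Punch 1 of treated animal 1 was set apart by its high shares of ENSMFAG00000000004 and of the run of 13 IDs, so passes without it are no separate support. With library size alone the log2 fold changes of ENSMFAG00000000002 and ENSMFAG00000000004 were smaller, at -0.40 and -0.55. The median of all genes moved from -0.01 to 0.27. Relative to that median the 2 genes were at -0.66 and -0.82.

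The count of called genes, 5 (1 higher, 4 lower), was 8 with library size alone (6 higher, 2 lower), 153 with DESeq2, 15 when unfiltered, 9 for genes at 1 CPM or more in 4 animals, 8 after bringing the punches to equal depth, 1, 15 and 0 in punches 1, 2 and 3, 0 in punch 3 without the library of non-treated animal 1, 68 in limma-voom over the 24 libraries, 18 without punch 1 of treated animal 1, 21 without both libraries, 4 in punch 1 without that punch, and 1 to 43 without each animal (43 without treated animal 1, 11 without treated animal 4, and 1 or 2 without any other).

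With the replicate number as a replicate block 2 genes were called, and the log2 fold changes were -0.67 and -0.83 with edgeR adjusted p of 0.128 and 0.053. The SEs were 0.096 and 0.090 with this block, against 0.20 and 0.19 in the main fit. The correlations of deviations of same-numbered animals were 0.00561, 0.0627, 0.268 and -0.113. These were taken over all genes and do not settle whether the numbers pair the animals.

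Over 8 measures, which count those added later, no share passed in any setting (smallest adjusted p 0.0762). The passes that follow are over 5 measures. For ENSMFAG00000000004 and for both IDs the exact permutation p was 0.0286, the smallest possible, in the main setting and in each pass. Their adjusted p fell under the threshold only where another of the 5 measures also reached that p. These passes are therefore no stronger evidence for them than the main setting. The share of ENSMFAG00000000004, -1.45 points, passed as the mean of punch values (-1.65), in punch 2 (-1.59), without punch 1 of treated animal 1 (-1.65), without both libraries (-1.37) and per 100 reads outside the 15 IDs (-3.62). The share of both IDs, -1.83 points, passed in the same settings at -2.10, -2.02, -2.08, -1.67 and -4.72, and that of ENSMFAG00000000002 only per 100 reads outside the 15 IDs, at -1.10. Leaving out each animal gave -0.471 to -0.281, -1.67 to -1.22 and -2.14 to -1.54 points for ENSMFAG00000000002, ENSMFAG00000000004 and both. Both IDs held 99.8% of the reads of the 37 lowest IDs in each group, a difference of -0.0861 points that passed as the mean of punch values (-0.0923), in punch 2 (-0.0977), without punch 1 of treated animal 1 (-0.101) and without both libraries (-0.0889).

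Differences near 0 changed sign. Leaving out each animal gave -0.070 to 0.15 for the log2 ratio of ENSMFAG00000000002 to the run of 13 IDs and -0.15 to 0.023 for that of both. Between punches 2 and 1 it gave -0.0353 to 0.0882 points for the share of ENSMFAG00000000002, -0.177 to 0.232 for ENSMFAG00000000004 and -0.0063 to 0.059 for the log2 ratio of the 2. Without the pair that uses punch 1 of treated animal 1 these last 2 were 0.232 and -0.0063.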
